A study of Mus musculus with 6 samples.

Results

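Two-cell-stage genes were examined in undifferentiated mouse embryonic stem cells (mESCs) that lack *Alkbh1*. The set comprised the *Zscan4* genes, *Tcstv1*, *Tcstv3*, *Zfp352* and *Gm4340*. They were chosen by their known expression in two-cell embryos, with their differences in this comparison already known, so those differences are given here as a description and carry no test. Of the 33142 probe sets in the authors' deposited table, 7 belonged to the set. A probe set is a group of short oligonucleotides on the array whose brightness reflects the abundance of a transcript. The rows were found by gene symbol, gene identifier or older name, except those of *Gm4340* and the *Zscan4* copies. These were found only through the annotation of a class comparison made from the same arrays. All identifiers of that comparison among the 33142 probe sets had an unadjusted p under 0.05 in limma's moderated test. A probe set that did not differ would thus not have been found this way. The 7 rows stood for 4 genes or groups of near-identical copies. Of the 6 genes listed by symbol, 5 had a row named to them. *Tcstv3* did not, although the family name that the table gives to *Tcstv1* also stands on 2 further rows.

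The arrays compared 2 groups of 3 samples, all from the C57BL/6 background at passage 8 and day 0 of differentiation. One group was wild type (WT) and the other *Alkbh1*-/-, and neither was treated. Both lines came from littermate blastocysts of heterozygous parents and were grown with LIF on irradiated mouse embryonic fibroblasts. The deposited labels carry 1 class name for each group (C3 for WT, C10 for *Alkbh1*-/-) and name no separate lines within a group. The genotype and the line therefore cannot be told apart. Nothing states that the 3 samples of a group were separate cultures, and p-values then measure only the spread between these samples, which may be technical. Each level below is a group mean on the log2 scale, computed from the deposited difference and overall mean, since no single-array values were at hand and an overlap of arrays between groups could not be examined. The SD beside it was computed from limma's moderated statistic. It is pooled over both genotypes and drawn towards that of all probe sets, so it is the same for both groups.

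In the mouse, the zygotic genome is switched on at the two-cell stage, when a burst of transcripts appears that is silenced again soon afterwards. In ESC cultures, a small and changing fraction of cells re-enters a state that resembles this stage and expresses the same transcripts, while most cells lack them. *Zscan4* genes encode zinc finger proteins with a SCAN domain and are known for telomere lengthening and genomic stability in ESCs. *Tcstv* genes were named as a variable group of two-cell-stage transcripts, and *Zfp352* encodes a zinc finger protein of the early embryo. The transcription factor Dux drives many of these genes. In RNA from whole cultures, more cells in this state and more RNA per cell cannot be told apart.

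The *Zscan4* copies form a cluster on chromosome 7, with 9 genes and pseudogenes in RefSeq (GRCm38.p6), 4 of them protein coding. Other annotated genes, 32 in number, lie between the first copy and the last. The single *Zscan4* probe set was annotated to 5 of the copies, *Zscan4a*, *Zscan4c*, *Zscan4f*, *Zscan4-ps2* and *Zscan4-ps3*, and it does not separate them. RefSeq gives *Zscan4a* as a transcribed pseudogene and *Zscan4c* and *Zscan4f* as protein coding. Since genes of several chromosomes were higher together, the promoters at hand are shown (250 bases before to 50 after the annotated start, 5′ to 3′). RefSeq promoter windows were found for *Zscan4b*, *Zscan4c*, *Zscan4d*, *Zscan4f*, *Zfp352* and *Gm4340*, and none was at hand for the *Tcstv* genes or *Zscan4a*. *Zscan4b* and *Zscan4d* are not among the copies annotated to the probe set. The windows of 3 loci are printed, from chr7:11005495-11005794 for *Zscan4c*, chr10:104193792-104194091 for *Gm4340* and chr4:90218570-90218869 for *Zfp352*, all on the plus strand. Capitals mark the TATAA of a TATA box core, the string TGATTNAAT that begins the recognition sequence of Dux, and the string TTTAATC, which was picked because it was noticed in these windows.
Zscan4c: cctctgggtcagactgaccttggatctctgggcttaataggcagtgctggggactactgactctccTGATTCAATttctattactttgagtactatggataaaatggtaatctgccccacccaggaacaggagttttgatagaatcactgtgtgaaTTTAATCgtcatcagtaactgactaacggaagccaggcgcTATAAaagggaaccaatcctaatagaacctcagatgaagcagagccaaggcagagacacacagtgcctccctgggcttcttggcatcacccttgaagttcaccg
Gm4340: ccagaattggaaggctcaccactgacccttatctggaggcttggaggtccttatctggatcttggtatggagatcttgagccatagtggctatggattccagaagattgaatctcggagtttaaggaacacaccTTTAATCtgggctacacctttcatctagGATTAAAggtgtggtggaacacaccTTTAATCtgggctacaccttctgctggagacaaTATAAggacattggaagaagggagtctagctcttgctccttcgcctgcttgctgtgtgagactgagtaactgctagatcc
Zfp352: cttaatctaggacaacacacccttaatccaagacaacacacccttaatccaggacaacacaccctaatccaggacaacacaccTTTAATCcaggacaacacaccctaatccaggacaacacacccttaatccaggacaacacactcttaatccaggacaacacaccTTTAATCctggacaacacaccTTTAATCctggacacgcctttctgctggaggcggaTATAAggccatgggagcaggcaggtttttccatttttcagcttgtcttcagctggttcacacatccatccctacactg
Both strands were searched. TATAA was found in 6 of the 6 windows and in 24.9% of all 32851 RefSeq promoter windows. It began 28 bases before the start in *Zfp352* and 30 in *Gm4340*, and between 31 and 65 bases before it in the *Zscan4* genes. TGATTNAAT was found in 3 of the 6 (*Zscan4b*, *Zscan4c* and *Zscan4f*), against 0.718% of all windows. TTTAATC was found in 6 of the 6, against 3.27% of all windows, in 3 places each in *Zfp352* and *Gm4340*. It was picked from these same windows, so this comparison is no test of it. In *Zscan4b* it overlaps TGATTNAAT, which lies there on the other strand. The *Zscan4* windows are copies of each other: aligned to that of *Zscan4c*, identity was 99.3% for *Zscan4f*, 97.2% for *Zscan4d* and 95.3% for *Zscan4b*, so they are not separate instances of a motif. The TTTAATC matches of *Zfp352* lie in a short unit repeated along its window. Those of *Gm4340* on the plus strand lie in copies of a single stretch. The bases around these matches are partly shared between both genes, so these matches cannot be counted as separate instances either.

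All 7 probe sets read higher in the *Alkbh1*-/- line. The log2 difference was over 1.5-fold (0.58 on the log2 scale) for 5 of them, and 4.33% of all probe sets were higher by that much. Among these 5, *Gm4340* and the *Zscan4* copies were named only through a list of probe sets that differed in this comparison. The differences ran from 0.34 to 4.33 on the log2 scale, against a median of −0.01 over all probe sets. *Zfp352* was the gene whose probe sets stayed below 1.5-fold.

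*Gm4340*, a predicted gene on chromosome 10, had the largest difference of the set (1443961_at). Its mean level was 4.60 ± 0.19 (SD, n = 3) in WT and 8.94 ± 0.19 (SD, n = 3) in *Alkbh1*-/- mESCs. The log2 difference was 4.33 (standard error 0.15, 95% confidence interval 3.97 to 4.69), a computed fold of 20.2. Only 5 of the 33142 probe sets had a larger rise. In *Alkbh1*-/- mESCs, 80.8% of all probe sets had a lower group mean than *Gm4340*, and in WT mESCs 21.0%.

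The *Zscan4* copies followed (1457033_at). Their mean level was 3.78 ± 0.18 (SD, n = 3) in WT and 7.04 ± 0.18 (SD, n = 3) in *Alkbh1*-/- mESCs. The log2 difference was 3.26 (standard error 0.15, interval 2.91 to 3.61), a computed fold of 9.57, and ranked 17th among all probe sets. A service company made a class comparison from the same arrays, whose values stand beside other identifiers. Its entry was matched to this probe set by value, so it repeats the difference by construction. There, the geometric mean of the intensity was 13.8 in WT and 131.7 in *Alkbh1*-/- mESCs on the linear scale. In WT mESCs, 1.87% of all probe sets had a lower mean, so that level was among the dimmest of the table. The size of such a fold depends on the array's floor.

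The 3 probe sets of the *Tcstv* family were higher as well, by 2.39, 1.49 and 1.48 on the log2 scale. The brightest (1425220_x_at) carries the family name but no gene, and its suffix marks oligonucleotides that may bind several related transcripts. Its mean level was 5.11 ± 0.16 (SD, n = 3) in WT and 7.50 ± 0.16 (SD, n = 3) in *Alkbh1*-/- mESCs, a computed fold of 5.26. The probe set of *Tcstv1* itself (1420729_at, chromosome 13) was at 3.14 ± 0.22 (SD, n = 3) in WT, where 0.0302% of the table was dimmer, and at 4.63 ± 0.22 (SD, n = 3) in *Alkbh1*-/- mESCs. The probe set of *Gm20767* (1425427_at), a gene of the same chromosome, was at 3.86 ± 0.34 (SD, n = 3) and 5.35 ± 0.34 (SD, n = 3), the widest spread of the set, and its interval ran from 0.84 to 2.14. The interval of *Tcstv1* ran from 1.06 to 1.90 and that of the brightest probe set from 2.08 to 2.71. With *Tcstv1* at the array's floor in WT, these sizes cannot be ordered.

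*Zfp352*, on chromosome 4, was the exception in size. Its brighter probe set (1425879_at) was at 4.16 ± 0.09 (SD, n = 3) in WT and 4.50 ± 0.09 (SD, n = 3) in *Alkbh1*-/- mESCs, a log2 difference of 0.34 (standard error 0.08, interval 0.16 to 0.52). The dimmer one (1425880_x_at) gave 0.36 (interval 0.14 to 0.58). Both stayed near the bottom of the range in both groups: 18.9% and 16.7% of all probe sets had a lower mean in *Alkbh1*-/- mESCs.

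**Figure D1:**
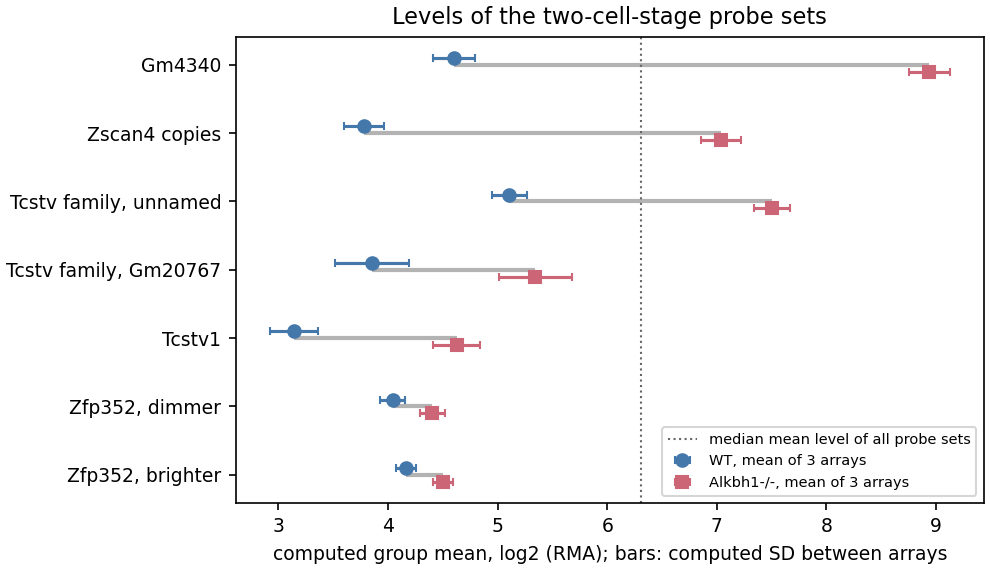
Computed group means (log2, horizontal axis) of the 7 probe sets of two-cell-stage genes (rows) in WT (circles) and *Alkbh1*-/- mESCs (squares), with bars for the computed SD between the 3 arrays of a group and a dotted line at the median level of all probe sets. *Gm4340*, the *Zscan4* copies and the unnamed *Tcstv* probe set passed from below that line in WT to above it in *Alkbh1*-/- mESCs, and *Zfp352* stayed near 4 in both.

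Among the named genes outside the set, the differences closest to that of the *Zscan4* copies were those of *Apoa2* (3.28, an apolipoprotein) and *Cd84* (3.14, a receptor of blood cells). They were followed by a probe set shared by *DXBay18* and related X-linked genes (3.09), by one shared by *Gm13040*, *Gm13043* and *Gm13057* (3.03), and by *Fam25c* (3.02). Likeness is measured here by the log2 difference between 2 groups only, and the 5 genes lie on chromosomes 1, X, 4 and 14. *Gm13057* is also on the list of two-cell transcripts described next.

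**Figure D2:**
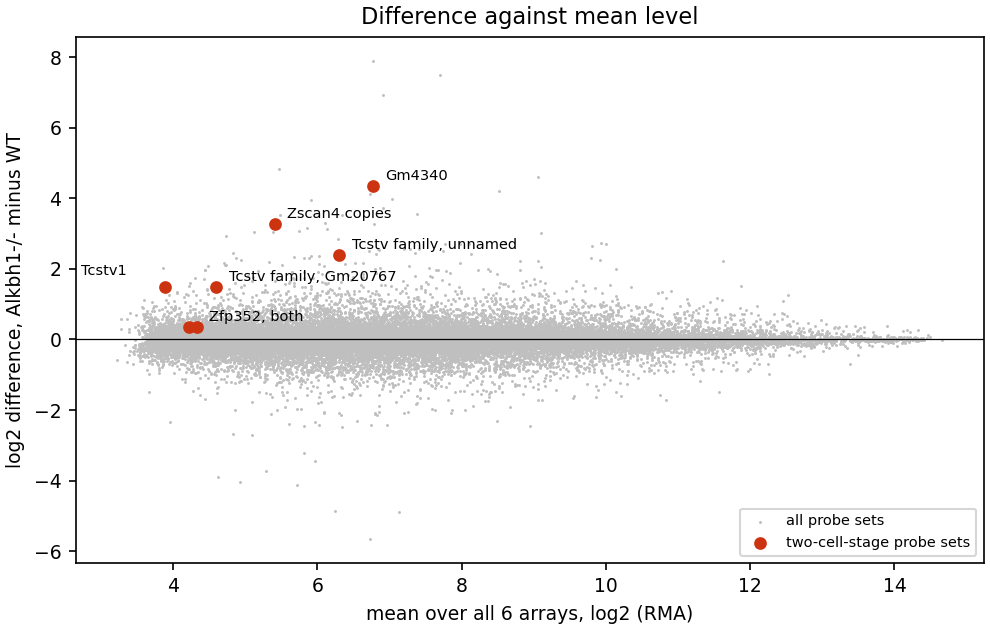
Log2 difference between *Alkbh1*-/- and WT mESCs (vertical axis) against the mean over all 6 arrays (log2, horizontal axis) for the 33142 probe sets (grey), with the 7 probe sets of two-cell-stage genes in red. *Gm4340* (4.33) and the *Zscan4* copies (3.26) lie at the upper edge of the cloud, while both *Zfp352* probe sets (0.34 and 0.36) lie inside it.

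Further transcripts of the two-cell-like state were taken from a list of 40 gene symbols. This list and the lists of regulators below were chosen with earlier results of these data known, so their counts are no independent test. Of the 40 symbols, 10 had a row, on 12 probe sets. Taking the brightest probe set of each gene, and a probe set shared by several genes once, left 7 genes or groups of copies. A gene was called where its p in limma's moderated test, adjusted across the table, was under 0.05 and its linear fold over 1.5. By this call, 3 of the 7 rose in *Alkbh1*-/- mESCs. Over all 15429 named genes or groups of copies at their brightest probe set, 4.66% were called higher and 4.13% lower. The median log2 difference of the 7 was 0.47, against −0.03 over all named genes, and 6 of the 7 were higher. At an unadjusted p under 0.05, 4 were higher and 0 lower, where 14.1% of all named genes were higher and 17.8% lower. In a test with unmoderated variances 2 were called higher and 0 lower.

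The *Gm13057* probe set rose by 3.03 on the log2 scale (standard error 0.21, adjusted p = 0.000335), from a group mean of 3.87 in WT to 6.90. *Usp17la*, a deubiquitinating enzyme of a multicopy family on chromosome 7, rose by 2.26 (standard error 0.13, adjusted p = 0.000188), from 3.81 to 6.07. The third was a probe set shared by *Eif1a* and 9 other genes, among them *Gm8300*, *Gm5662*, *Gm4027* and *BB287469*. Those relatives of a translation initiation factor are transcribed in two-cell-like cells, whereas *Eif1a* itself is more widely used. The probe set rose by 1.25 (standard error 0.18, adjusted p = 0.00469), and a dimmer probe set of *Gm8300* gave 1.25 as well. This was the call lost with unmoderated variances. *BB287469* lies on chromosome 12, as does *Alkbh1*. The homeobox gene *Obox6* had a log2 difference of 0.47 (adjusted p = 0.0493), below the fold threshold, and *Ddit4l* one of 0.20 (adjusted p = 0.280).

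A limit of these names bears on the counts, and also on the median and the number of genes higher in the list of two-cell transcripts. The probe sets of *Gm13057* and of the *Eif1a* relatives, like those of *Gm4340* and the *Zscan4* copies, were named only through the annotation of the class comparison. All 4261 of its identifiers that are in the larger table have an unadjusted p under 0.05 there, so a probe set of such a gene that did not differ would have stayed unnamed. Among the 5 listed probe sets named in other ways, 1 was called, *Usp17la*. The log2 differences of the others ran from −0.07 (*Sp110*) to 0.47 (*Obox6*).

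Regulators of the state were then examined. Of 9 listed activators, 6 had a row, and 1 was called, where 4.66% of all named genes were called higher and 4.13% lower. *Tbx3*, a T-box transcription factor that is expressed in pluripotent cells and is known to favour *Zscan4* expression, rose by 2.31 (standard error 0.27, adjusted p = 0.00196), from 8.64 to 10.95. The next brightest probe sets of *Tbx3* gave 2.23 and 1.99, and a dim one gave 0.44 (adjusted p = 0.202). *Dppa2* and *Dppa4*, which act together upstream of *Dux*, had log2 differences of 0.19 and −0.27, with adjusted p of 0.293 and 0.139. *Gata2*, *Nr5a2* and *Nelfa* had an adjusted p under 0.05 below the fold threshold, with log2 differences of 0.49, 0.28 and −0.43. *Dux* itself had no named row. The median of the 6 was 0.23.

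Of 29 listed repressors of two-cell transcripts, 28 had a row. Over all named genes, 4.66% were called higher and 4.13% lower, and of the 28, 1 was called. This was *Tet2*, a 5-methylcytosine dioxygenase, which rose by 0.93 (standard error 0.10, adjusted p = 0.00138) and by 1.07 at its other probe set. By limma's test with the fold 0 fell, as in a test with unmoderated variances. At an unadjusted p under 0.05 without a fold, 5 were higher and 6 lower, where 14.1% of all named genes were higher and 17.8% lower. With the adjusted p alone, 2 were higher and 4 lower, where 7.95% of all named genes were higher and 8.44% lower. Those 4 were *Ehmt1* (−0.47, adjusted p = 0.0260), *Setdb1* (−0.42, adjusted p = 0.0351), *Zmym2* (−0.40, adjusted p = 0.0325) and *Ehmt2* (−0.37, adjusted p = 0.0219), of which *Ehmt2* and *Zmym2* were named after their values were seen. *Ehmt1*, *Ehmt2* and *Setdb1* encode histone H3 lysine methyltransferases, and *Zmym2* a zinc finger protein bound to corepressor complexes. The dimmer probe sets of *Setdb1*, *Ehmt2* and *Zmym2* gave −0.14, −0.08 and −0.21, each with an adjusted p over 0.05. *Rnf2*, the other one that was higher, was at 0.35. The counts rest on the brightest probe sets, where *Mga* was at 0.35 (adjusted p = 0.0751). Dimmer probe sets of *Mga* gave −0.50 (adjusted p = 0.00705) and −0.36 (adjusted p = 0.0334). Dimmer ones of *Rif1* and *Rybp* gave 0.40 (adjusted p = 0.0345) and 0.38 (adjusted p = 0.0485). The median of the 28 was −0.03, close to that of all named genes. *Trim28*, *Kdm1a* and *Dnmt1* had log2 differences of −0.05, −0.07 and −0.01.

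*Zscan4* is known for its link to telomere recombination, during which meiosis genes are also expressed. A list of 16 telomere and recombination genes was therefore examined. Like the other lists, it was chosen with earlier results of these data known, so its counts are no independent test. Of the 16 genes, 14 had a row. Of these, 2 were called, both higher, where 4.66% of all named genes were called higher and 4.13% lower. *Smc1b*, the cohesin subunit of meiotic chromosomes, rose by 2.31 (standard error 0.21, adjusted p = 0.000892), from 4.66 to 6.97. *Dmc1*, the meiotic strand exchange recombinase, rose by 0.86 (standard error 0.10, adjusted p = 0.00196), and its other probe set gave 0.80. At an unadjusted p under 0.05, 6 of the 14 were higher and 0 lower, where 14.1% of all named genes were higher and 17.8% lower. With the adjusted p alone, *Terf1*, *Dkc1* and *Atrx* were also higher, at 0.54, 0.52 and 0.42, where 7.95% of all named genes were higher. Each of these 3 passed the full call at a dimmer probe set, so 5 of the 14 were called at any probe set. Over all named genes, 5.61% were called higher and 4.64% lower at any probe set. *Terf1* encodes a telomere-binding protein, *Dkc1* a telomerase component and *Atrx* a chromatin remodeller. A dimmer probe set of *Terf1* gave 0.61 (adjusted p = 0.00357), and those of *Dkc1* gave 0.59 (adjusted p = 0.00232) and 0.78 (adjusted p = 0.00525). The 7 dimmer probe sets of *Atrx* gave 0.61 to 1.14, and all 7 were called. *Dkc1* and *Atrx* are X-linked, and 533 X-linked genes had a median log2 difference of 0.47 at their brightest probe set. The part of this X-linked shift in their differences was not tested. With 8 probe sets, *Atrx* also had more chances of a call at any of them. *Tert*, the catalytic subunit of telomerase, was at 0.01 and *Rif1*, which is also on the list of repressors, at 0.25. The median of the 14 was 0.07.

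**Figure D3:**
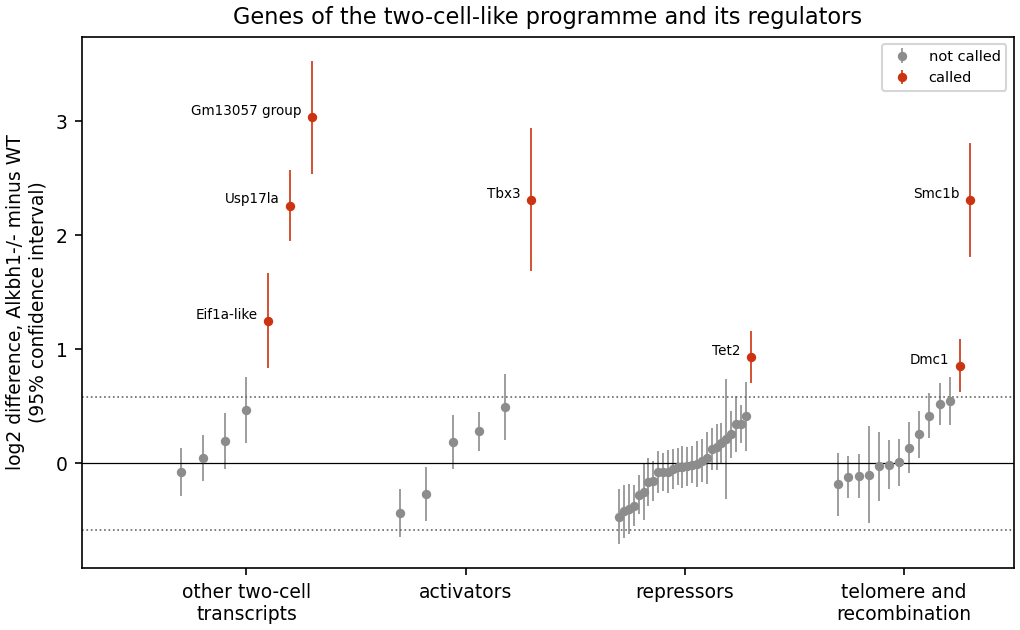
Log2 difference between *Alkbh1*-/- and WT mESCs (vertical axis, with computed 95% confidence intervals) at the brightest probe set of each gene of the 4 lists (horizontal axis); red marks a call and dotted lines the 1.5-fold threshold. The 7 calls at these probe sets are all above 0, and the points of the repressors other than *Tet2* lie within the threshold lines.

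The labels were checked against the targeted gene and against markers. *Alkbh1* (1434660_at, chromosome 12) differed by −4.89 on the log2 scale, from 9.57 in WT to 4.69 (standard error 0.17, adjusted p = 2.99e-05). All 11 markers of ESCs, *Pou5f1*, *Nanog* and *Zfp42* among them, had mean levels above the median of the table. By limma's test with the fold, 1 of them, *Nanog*, was called higher (1.10, adjusted p = 0.000591) and 0 lower. With the adjusted p alone, 4 were higher and 3 lower, where 7.95% of all named genes were higher and 8.44% lower. The 4 were *Nanog*, *Esrrb* (0.55), *Fgf4* (0.42) and *Tdgf1* (0.32). The 3 were *Lin28a* (−0.56), *Utf1* (−0.49) and *Sall4* (−0.38). The lines also differed outside *Alkbh1*: all 4 Y-linked genes on the list with a row (*Eif2s3y*, *Ddx3y*, *Kdm5d* and *Uty*) were called lower, with log2 differences from −5.65 to −2.69, and 533 X-linked genes had a median log2 difference of 0.47. The 6 named probe sets of the two-cell-stage set are autosomal, which by itself is no test of a part of the sex chromosomes. The log2 differences of all 15 markers of feeder fibroblasts were below 0, from −1.11 to −0.32. Of these, 0 were called by limma's test and 0 with unmoderated variances. By limma's test, 4.66% of all named genes were called higher and 4.13% lower. At an unadjusted p under 0.05, 0 of the 15 were higher and 5 lower, where 14.1% of all named genes were higher and 17.8% lower. The log2 of the summed level of the 15 was 14.5 in WT and 13.8 in *Alkbh1*-/- mESCs. Of the 7 markers of primitive endoderm with a row, *Sox7* was called higher (0.88). *Dab2* (−0.92, adjusted p = 0.0858) and *Pdgfra* (−0.34) were lower without a call. Of the 7, 5 had a log2 difference above 0 and 2 below, and 0 had a mean level at or above the median of the table. Of the 7 of trophectoderm, *Gata3* was called higher (1.08) and *Krt8* and *Krt18* lower (−1.55 and −1.47). The shares of calls over all named genes given beside the feeder markers apply to all these markers. The part of the sex chromosomes and of the feeder cells in the differences of the two-cell-stage genes was not tested. The X-linked and Y-linked differences coincide with the genotype in these samples, so they cannot be told apart from it.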

How the data were processed

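Total RNA of 3 WT and 3 *Alkbh1*-/- mESC samples was hybridized to Affymetrix mouse arrays, which the authors normalized jointly by robust microarray analysis (RMA). They deposited a table of log2 values for 33142 probe sets (each one's difference between genotypes and average level), with the moderated statistic as a score and its raw and adjusted p-value. The filter behind this number is not given in the sources used here. A deposited class comparison holds geometric means of intensity in each genotype and their ratio; its values stand beside other identifiers than in the larger table, so it was joined by value (within 0.0001 on the log2 scale). The difference is *Alkbh1*-/- minus WT, from the class names and the deposited description, and the class written C1 was read as WT, as that description states. These columns hold the authors' own comparison, and no other values of this experiment were analysed here.

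A limma fit to single arrays had been planned. Instead, standard errors were computed as the difference over the moderated statistic, SDs between arrays from these, and 95% intervals from 7.14 total degrees of freedom. Recovered variances (prior variance 0.0160 on 3.14 degrees of freedom, tested on simulated data) gave a test with unmoderated variances and a prior with a trend on mean expression. Adjusted p-values (Benjamini-Hochberg) are over all probe sets. Probe sets were named through RefSeq genes of GRCm38.p6 (28310 of 33142), and a gene is given by its brightest probe set. Promoters are from RefSeq GRCm38.p6. All members are named, with every listed gene called, the 2 largest differences not called, *Alkbh1* and the 5 nearest differences; any further gene was picked with its values in view. The members and lists were chosen with earlier results of these data known. The number of arrays limits the precision. R 4.3.3, limma 3.58.1, Python 3.11.15, SciPy 1.17.1, pandas 2.3.3, Biopython 1.88 and matplotlib 3.10.9 were used.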

Additional observations from a re-analysis of the deposited data

How the results depend on the processing

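*Gm4340* and the *Zscan4* copies had 1 probe set each and no independent alternative, since the class comparison was joined by value and repeats their differences by construction. *Zfp352* moved by less than the spread between arrays at its other probe set. For the *Tcstv* family, 2.39 at the brightest probe set became 1.79 as a mean over its probe sets and 1.48 at the dimmest. With the adjusted p alone, 4 activators (3 higher, 1 lower) and 6 repressors (2 higher, 4 lower) were called. So were 5 telomere and recombination genes, all higher. By the same measure, 7.95% of all named genes were higher and 8.44% lower. With a log2 difference over 1.5, 0 repressors and 1 telomere and recombination gene (*Smc1b*, higher) were called. The share of all named genes called at this threshold, or among brighter probe sets alone, was not computed. Among probe sets with a mean at or above the median, 0 of 1 two-cell transcript was called and 1 telomere and recombination gene, *Dmc1*, since *Smc1b* and the other two-cell transcripts are dimmer. Without probe sets named only by the class comparison, an alternative added once the data had been seen, 1 two-cell transcript was called. Counting a gene as called at any probe set, likewise added later, gave 5 telomere and recombination genes, all higher. Over all named genes, 5.61% were then called higher and 4.64% lower. All other counts of calls stayed within 1.5 times the value reported. Leaving out single arrays was not run. No paired analysis was possible because the tables carry no values of single arrays. Dim WT levels limit how well the folds of the two-cell-stage genes are known.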
